A study of Homo sapiens with 10 samples.

Results

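The 45 genes described here encode the machinery that prepares, starts and copies chromosomal DNA, from the origin recognition complex to the ligase that seals new strands. They were chosen by function and by platform gene symbol, with earlier results of these data known. They are 45 of 19775 genes tested. All 45 were measured, through 80 probe sets. Where a gene had several, the one brightest on average across the 10 arrays stands for it. No gene was filtered out for low signal. The arrays compare microvesicles shed by K562 cells (5 arrays) with the K562 cells themselves (5 arrays). K562 is an established human line from chronic myeloid leukaemia with the BCR-ABL1 fusion gene, so both groups come from the same transformed line, and the labels name no drug, genotype change or time course. Microvesicles are membrane-bound particles that pinch off from cells and carry part of their RNA. RNA came from 5 independent experiments and 100 ng of total RNA went into each labelling, per the labels. Values are RMA expression values on the log2 scale, so a difference of 1 is a 2-fold difference. The labels do not say whether the preparations were separate cultures, so each p-value reflects only how these samples vary, which may be technical. Because equal amounts of RNA were labelled, a lower share of the RNA and less RNA per vesicle cannot be told apart. Whether both groups were normalized together is not stated.

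Before S phase the origin recognition complex marks origins, and CDC6 and CDT1 load the ring-shaped MCM2-7 helicase there. The kinase CDC7 with its activator DBF4, together with CDC45 and the GINS complex, turns the loaded ring into a moving helicase. Polymerase alpha-primase lays primers, the clamp PCNA is loaded by replication factor C, polymerases delta and epsilon extend, and FEN1 and LIG1 finish the lagging strand. Many of these genes are targets of E2F transcription factors and are transcribed most as cells enter S phase, and K562 cells proliferate continuously in culture.

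Erythroid markers of K562 had values above the array medians in both groups. Of 8 listed, 7 were measured, and their means ran from 6.19 to 12.09 in microvesicles and from 5.92 to 11.72 in cells. Of the 7, GATA1 (-0.61) and TAL1 (-0.79) passed as lower in microvesicles and EPOR (0.79) as higher. Among other cell types, the 4 lymphocyte markers measured had means of 4.02 to 8.01 in microvesicles and 3.15 to 8.18 in cells, where CD3D was the highest. Platelet markers (4 of 4 measured) reached 6.17 in microvesicles and 5.26 in cells, monocyte markers (3 of 4) 4.88 and 4.05, and fibroblast markers (4 of 4) 6.98 and 6.48. Their values summed over each list, lymphocyte markers first, were 20.89 to 22.70, 17.31 to 18.35, 10.83 to 13.38 and 19.22 to 22.70 in microvesicles, and 18.76 to 20.73, 14.79 to 15.70, 9.49 to 11.15 and 17.19 to 18.81 in cells. In each of these 4 lists 3 markers passed as higher in microvesicles, where 35.5% of all genes passed as higher. After loess normalization by level, described below, MS4A1, PPBP, CD14, CD163 and COL3A1 no longer passed, and the others of these still did. Array medians were 4.22 to 4.28 in microvesicles and 4.08 to 4.12 in cells. The values carry no detection call, so a value near the array median is not known to exceed background, and the part of these markers in the results was not tested. For ACTB, the signal of the 3' control probe set exceeded that of the 5' one, a measure of RNA integrity, by 2.72 to 3.64 in microvesicles and 2.26 to 2.57 in cells (exact permutation p = 0.00794, adjusted p = 0.0119 over 3 array measures, 2-sided). Its part in the results below was not tested.

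Most replication genes were lower in microvesicles, at every step from origin binding to ligation. Of the 45 genes 42 fell, 0 rose and 3 did not pass (limma adjusted p under 0.05 over all 19775 genes). Among all genes 31.2% passed as lower and 35.5% as higher. In genes whose mean over the 10 arrays lay in the range of these 45 (5.97 to 10.90, 6827 genes) 63.4% passed as lower and 8.38% as higher, against 93.3% lower for the replication genes. The median change was -1.36 for the 45 genes, -0.78 for genes of that level range and 0.20 for all genes. At least 2-fold falls numbered 35 of 45 (77.8%), against 40.5% in the level range and 19.8% of all genes. The microvesicle and cell arrays did not overlap in 37 of the 45 (82.2%), against 55% and 26.1%.

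The size of the fall depended on the scaling. RMA values of microvesicle arrays spread less over probe sets (SD 1.89 to 1.99) than those of cell arrays (2.33 to 2.36). After loess normalization by level, which removes a shift common to genes of similar level, 24 of the 45 genes were lower and 1 was higher. The corresponding shares were 18.8% lower and 26% higher of all genes and 28.8% and 27% of genes in the level range. The median change of the 45 genes was then -0.61, against -0.04 in the level range, and 39 of the 45 lay below 0. After a second quantile normalization 19 were lower and 1 was higher, with 16.5% of all genes and 27.1% of those in the level range lower. Of the 42 falls 18 did not pass after loess, and their changes on that scale are given with each complex below.

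**Figure D1:**
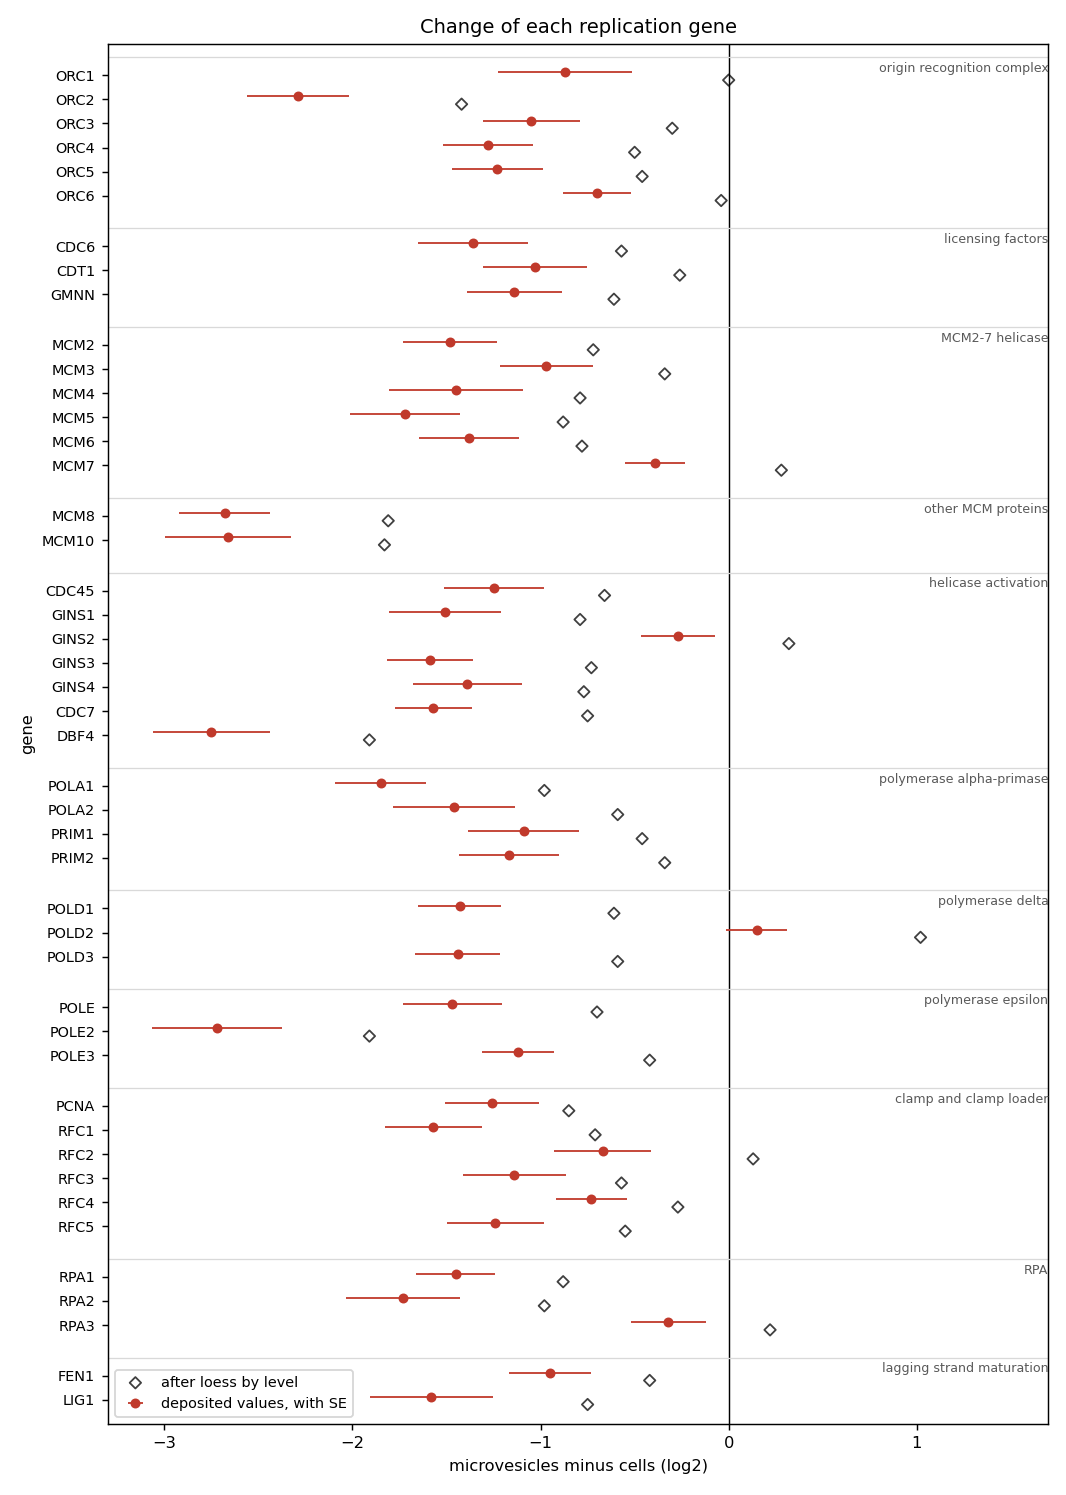
Change of each of the 45 genes, microvesicles minus cells on the log2 scale, by complex. Filled circles are deposited values with their SE and open diamonds are changes after loess by level; POLD2 is the 1 circle right of 0, and the diamonds of MCM7, GINS2, POLD2, RFC2 and RPA3 lie right of 0.

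Promoters of these genes are shown for 4 members that span the range of changes, to set sequence beside the values. RefSeq promoters (GRCh38.p14, 250 bases before to 50 after a start listed for the gene) were found for 39 of the 45 genes. For ORC1, CDC45, PRIM2 and POLD2 that start lies inside the genomic span of the gene used below. The POLD2 window is therefore not at the outer end of its span. Capitals mark matches on either strand to an E2F motif (TTTGGCGC, TTTCCCGC, TTTGCCGC or TTTCGCGC), to CCAAT, the core of the site bound by NF-Y, or to TTTGAA, the cell cycle homology element. Matches of a motif and its reverse complement that overlap were counted separately. MCM6, a helicase subunit that fell by 1.38, has its promoter on the minus strand of chr2:135876394-135876693. POLE2, which fell by 2.72, lies on the minus strand at chr14:49688165-49688464. DBF4, with the largest fall (2.75), is on the plus strand at chr7:87876243-87876542, and POLD2, the 1 member with a change above 0, is on the minus strand at chr7:44123499-44123798.
MCM6: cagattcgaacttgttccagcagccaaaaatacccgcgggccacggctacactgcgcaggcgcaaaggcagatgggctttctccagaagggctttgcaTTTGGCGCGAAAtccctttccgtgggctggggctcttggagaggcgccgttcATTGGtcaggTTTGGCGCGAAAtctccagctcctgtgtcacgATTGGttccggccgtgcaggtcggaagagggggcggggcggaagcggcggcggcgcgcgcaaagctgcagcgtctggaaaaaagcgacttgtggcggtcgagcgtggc
POLE2: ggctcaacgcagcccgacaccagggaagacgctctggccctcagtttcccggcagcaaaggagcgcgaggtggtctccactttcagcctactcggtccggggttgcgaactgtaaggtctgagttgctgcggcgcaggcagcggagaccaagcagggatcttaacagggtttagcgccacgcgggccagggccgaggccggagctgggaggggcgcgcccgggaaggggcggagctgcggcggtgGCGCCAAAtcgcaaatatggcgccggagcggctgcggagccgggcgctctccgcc
DBF4: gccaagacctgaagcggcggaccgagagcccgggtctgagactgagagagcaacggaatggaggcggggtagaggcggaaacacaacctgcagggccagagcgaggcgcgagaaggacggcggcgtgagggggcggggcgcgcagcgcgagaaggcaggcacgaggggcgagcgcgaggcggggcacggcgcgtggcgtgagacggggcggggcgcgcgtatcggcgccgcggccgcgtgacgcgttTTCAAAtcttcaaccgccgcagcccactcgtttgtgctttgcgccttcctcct
POLD2: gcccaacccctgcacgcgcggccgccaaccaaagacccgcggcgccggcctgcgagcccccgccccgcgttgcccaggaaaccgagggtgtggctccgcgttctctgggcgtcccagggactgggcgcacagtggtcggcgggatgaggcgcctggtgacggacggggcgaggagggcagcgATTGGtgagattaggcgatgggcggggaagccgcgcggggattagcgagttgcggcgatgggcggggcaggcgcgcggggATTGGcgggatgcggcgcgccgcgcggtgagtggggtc
MCM6 holds 4 E2F matches in 2 overlapping pairs, starting 152, 148, 90 and 86 bases before the start, and 2 CCAAT matches. POLE2 holds 1 E2F match, 5 bases before the start. DBF4 and POLD2 hold none in this window, DBF4 has 1 TTTGAA match and POLD2 has 2 CCAAT matches. Across members 18 of 39 promoters (46.2%) held an E2F match, against 3.31% of all 35116 promoters and 6.19% of 5755 promoters of genes in the same level range. CCAAT was found in 21 of 39 (53.8%), against 34.6% of all promoters and 38.3% of those in the level range. TTTGAA was found in 1 of 39 (2.56%), against 15.2% and 10.2%. A match is only a string of letters in this window, and DBF4 and POLD2, at opposite ends of the range of change, both lacked the E2F one.

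**Figure D2:**
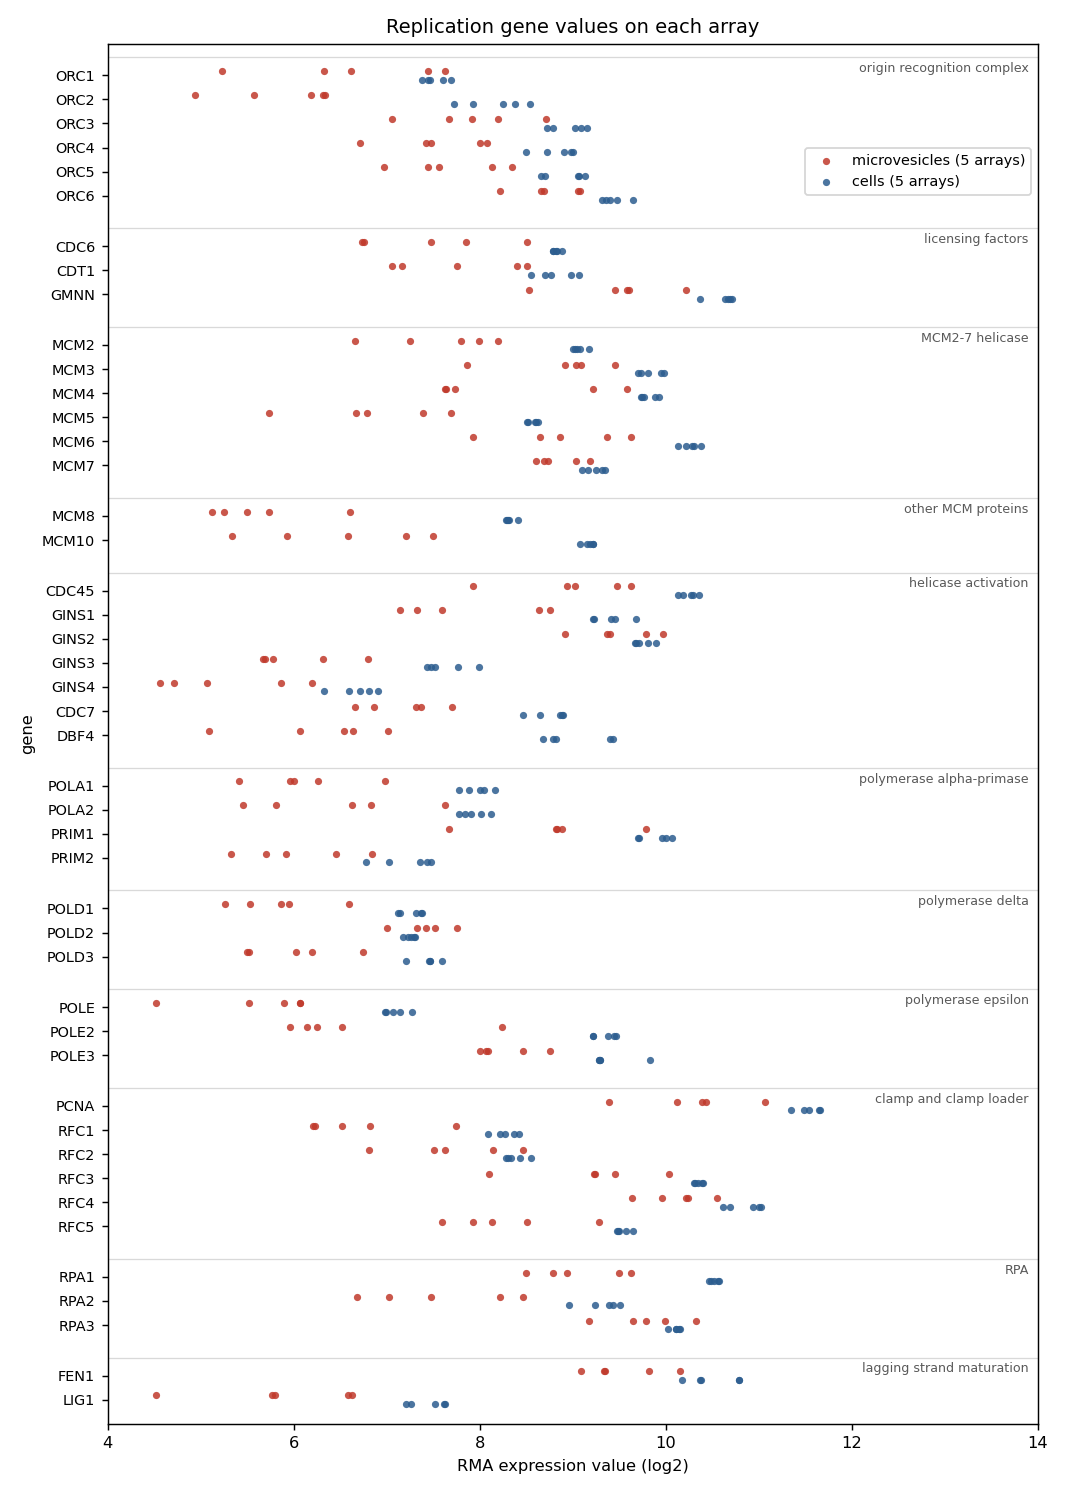
RMA values (log2) of the 45 genes on each array, by complex, with microvesicles drawn above cells. Cell arrays cluster tightly and microvesicle arrays spread widely to their left; the groups overlap in ORC1, MCM7, GINS2, PRIM1, PRIM2, POLD2, RFC2 and RPA3.

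All 6 subunits of the origin recognition complex passed as lower, with a median change of -1.14. By the brightest probe sets ORC2, a subunit of the core that binds origin DNA, fell furthest. It had values of 6.18, 4.94, 6.33, 5.57 and 6.31 in microvesicles, against 8.25, 8.54, 8.38, 7.92 and 7.72 in cells. Every microvesicle array lay well below every cell array, with replicates 2 and 4 lowest. The change was -2.29 ± 0.271 (SE), or 4.9-fold lower (limma adjusted p = 1.48e-05), and -1.42 after loess. ORC6, the smallest subunit, which bridges to the helicase, had 9.07, 8.69, 8.66, 8.21 and 9.05 in microvesicles and 9.40, 9.31, 9.36, 9.64 and 9.47 in cells. Its groups were close but separate, with a change of -0.70 ± 0.183 (limma adjusted p = 0.00472). After loess it stood at -0.04 and did not pass. ORC1, which starts the assembly and is made and destroyed with the cell cycle, changed by -0.87 ± 0.358 with overlapping groups (limma adjusted p = 0.0455), with values of 5.23 to 7.62 in microvesicles against 7.38 to 7.69 in cells, and stood at 0.00 after loess. Its call was lost without microvesicles replicate 2, 3 or 4 or any 1 cell array (-0.90 to -0.52, limma adjusted p = 0.065 to 0.0924). The other subunits ORC3, ORC4 and ORC5 changed by -1.05, -1.28 and -1.23, and by -0.30, -0.50 and -0.46 after loess. By the brightest probe sets ORC2 alone of the 6 passed after loess. Another ORC5 probe set, with means of 4.40 in microvesicles and 7.38 in cells, changed by -2.98. That fall was larger than those of the ORC2 probe sets (-2.29 and -2.60). The remaining, dim ORC5 probe set changed by 0.09 and did not pass. The mean of all probe sets changed by -1.37 for ORC5 and by -2.45 for ORC2.

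The 3 licensing factors fell by similar amounts. CDC6, the ATPase that recruits the helicase to the origin complex, had 8.51, 6.75, 7.47, 6.73 and 7.85 in microvesicles and 8.88, 8.79, 8.82, 8.83 and 8.79 in cells. The cell arrays were almost identical, while microvesicles spread from 6.73 to 8.51, wider than the fall itself, with replicate 1 nearest the cells. Its change was -1.36 ± 0.291, or 2.57-fold lower (limma adjusted p = 0.00133). CDT1, the partner that brings in the helicase, had 8.40, 7.16, 7.75, 7.05 and 8.51 in microvesicles and 9.06, 8.98, 8.76, 8.55 and 8.70 in cells. Its groups missed overlap by 0.03, with replicates 1 and 5 of the microvesicles just under the lowest cell array, and the change was -1.03 ± 0.276 (limma adjusted p = 0.00544). A second CDT1 probe set changed by -0.59 and did not pass, and the mean of both changed by -0.81. GMNN, which encodes geminin, the inhibitor of CDT1, changed by -1.14 ± 0.252. Of the 3 genes GMNN passed after loess (-0.61), CDC6 (-0.57) and CDT1 (-0.26) did not, and no pair of them differed in its change.

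The 6 subunits of the MCM2-7 helicase all passed as lower in the deposited values, with a median of -1.42 and a range from -1.72 to -0.39. MCM5 had 7.69, 6.67, 6.78, 5.73 and 7.39 in microvesicles and 8.60, 8.51, 8.52, 8.62 and 8.59 in cells. Microvesicle replicate 4 was lowest and replicate 1 highest, and none reached the cells. The change was -1.72 ± 0.292, or 3.29-fold lower (limma adjusted p = 2.61e-04), and -0.88 after loess. A second MCM5 probe set changed by -0.76 and did not pass, and the mean of both changed by -1.24. MCM7 behaved differently from its partners in size, with 9.18, 8.73, 8.69, 8.60 and 9.03 in microvesicles and 9.31, 9.16, 9.10, 9.34 and 9.25 in cells. Its groups overlapped, and the change was -0.39 ± 0.159, or 1.31-fold lower (limma adjusted p = 0.0455). After loess it stood at 0.28 and after quantile normalization at 0.26, neither passing. Its call was also lost without microvesicles replicate 2, 3 or 4 or any 1 cell array (-0.42 to -0.33, limma adjusted p = 0.062 to 0.0956). MCM2, MCM3, MCM4 and MCM6 changed by -1.48, -0.97, -1.45 and -1.38. MCM2, MCM5 and MCM6 passed after loess, and MCM3 (-0.34) and MCM4 (-0.79) did not. In each of the 5 pairs of MCM7 with another subunit the other subunit fell more, by a difference of -0.58 (MCM3) to -1.33 (MCM5), at exact permutation p = 0.00794 and adjusted p = 0.0235 over 86 pairs within complexes.

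MCM8 and MCM10 fell more than most of the list. MCM8, a related helicase that works in recombination with MCM9, had 6.60, 5.12, 5.73, 5.25 and 5.49 in microvesicles and 8.28, 8.41, 8.29, 8.31 and 8.30 in cells. The groups were 1.68 apart at their nearest arrays. Its change was -2.68 ± 0.24, or 6.41-fold lower (limma adjusted p = 1.81e-06), and -1.81 after loess. A second, dim MCM8 probe set rose by 0.85 with a mean of 5.10 in microvesicles and 4.25 in cells, and the mean of both probe sets changed by -0.91. MCM10, which helps the helicase start unwinding, changed by -2.66 ± 0.335 (6.3-fold lower, limma adjusted p = 2.53e-05), and its other probe sets by -1.90 and -2.28.

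Helicase activation genes fell in 6 of 7 cases, with a median of -1.51. DBF4, the regulatory subunit that activates the CDC7 kinase, had 6.64, 6.07, 6.54, 7.01 and 5.09 in microvesicles and 8.79, 9.43, 9.40, 8.82 and 8.68 in cells. In contrast to most members, replicate 5 and not replicate 4 was its lowest microvesicle array, and replicate 4 was its highest. The change of -2.75 ± 0.313, or 6.74-fold lower (limma adjusted p = 1.10e-05), was -1.91 after loess. CDC7 itself changed by -1.57 ± 0.204. The change of DBF4 was lower than that of CDC7 by 1.19 ± 0.439, a difference that did not pass (exact permutation p = 0.0238, adjusted p = 0.0602). CDC45, part of the active helicase, changed by -1.25 ± 0.266, and the GINS subunits GINS1, GINS3 and GINS4 by -1.51, -1.59 and -1.39. All of these passed after loess, GINS4 at an adjusted p of 0.0495 (limma). GINS4 did not pass after quantile normalization (-0.85, limma adjusted p = 0.0856), and the mean of its 4 probe sets changed by -0.69.

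GINS2 stood apart from the other GINS genes. It had 9.97, 9.37, 9.40, 8.91 and 9.78 in microvesicles and 9.71, 9.67, 9.68, 9.89 and 9.81 in cells. Microvesicle replicate 1 lay above every cell array and replicates 2, 3 and 4 below them. The change of -0.27 ± 0.195 did not pass (limma adjusted p = 0.234) and was 0.32 after loess, also not passing. A dimmer GINS2 probe set rose by 1.49, with means of 6.54 in microvesicles and 5.06 in cells. The change of GINS2 differed from that of each of the other 6 helicase activation genes, from a difference of -0.99 for CDC45 minus GINS2 to 2.49 for GINS2 minus DBF4, all at exact permutation p = 0.00794 and adjusted p = 0.0235.

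Polymerase alpha-primase, which makes the RNA-DNA primers, had 4 falls of 4. POLA1, the catalytic subunit, had 6.98, 5.96, 6.26, 5.41 and 6.0 in microvesicles and 8.04, 7.88, 7.77, 8.0 and 8.16 in cells. Its groups were clearly apart, with a change of -1.85 ± 0.241, or 3.6-fold lower (limma adjusted p = 3.29e-05), and -0.98 after loess. PRIM1, the catalytic primase subunit, had 9.78, 8.83, 8.88, 7.67 and 8.82 in microvesicles and 10.06, 9.96, 10, 9.71 and 9.70 in cells. Microvesicle replicate 1 reached into the range of the cells while replicate 4 lay furthest below. PRIM1 changed by -1.09 ± 0.295 (limma adjusted p = 0.00591). POLA2 and PRIM2, the accessory subunits, changed by -1.46 and -1.17. After loess POLA1 was the 1 gene of the 4 to pass, with POLA2 at -0.59, PRIM1 at -0.46 and PRIM2 at -0.34. The mean of the 3 POLA2 probe sets changed by -0.73. POLA1 fell more than PRIM1, with a difference in change of -0.76 ± 0.17 (exact permutation p = 0.00794, adjusted p = 0.0235).

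Polymerase delta, which copies the lagging strand, was split. POLD3, an accessory subunit, had 6.74, 5.52, 6.02, 5.50 and 6.19 in microvesicles and 7.59, 7.46, 7.45, 7.20 and 7.46 in cells. All its microvesicle arrays lay below the cells, and it changed by -1.44 ± 0.226 (2.71-fold lower, limma adjusted p = 1.42e-04). Its second probe set changed by -0.22 and did not pass, and the mean of both changed by -0.83. POLD1, the catalytic subunit, changed by -1.43 ± 0.221. POLD1 and POLD3 passed after loess (-0.61 and -0.59), but not after quantile normalization (-0.68 and -0.65). POLD2, the subunit that bridges these, had 7.75, 7.42, 7.32, 7.0 and 7.52 in microvesicles and 7.29, 7.17, 7.23, 7.30 and 7.26 in cells. Of its 5 microvesicle arrays 4 lay above all cells and 1, replicate 4, below them. The change of 0.15 ± 0.162 did not pass (limma adjusted p = 0.416). After loess POLD2 was higher by 1.02 (limma adjusted p = 1.32e-04) and after quantile normalization by 1.03, the 1 member to pass as higher in either. With arrays centred on their median it stood at -0.01. The change of POLD1 minus that of POLD2 was -1.58 ± 0.123, and that of POLD2 minus that of POLD3 was 1.59 ± 0.165 (exact permutation p = 0.00794 and adjusted p = 0.0235 for both), and these differences were -1.63 and 1.61 after loess.

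Polymerase epsilon, which copies the leading strand, had 3 falls of 3. POLE2, the subunit that ties the polymerase to the helicase, had 8.24, 6.14, 6.52, 5.96 and 6.25 in microvesicles and 9.46, 9.22, 9.21, 9.44 and 9.38 in cells. Microvesicle replicate 1 stood far above the other 4, though still below the cells. POLE2 changed by -2.72 ± 0.347, or 6.59-fold lower (limma adjusted p = 2.76e-05), and by -1.91 after loess. POLE3, a histone-fold subunit, had 8.75, 8.07, 8.46, 8.09 and 8.0 in microvesicles and 9.29, 9.29, 9.28, 9.83 and 9.28 in cells. Cell replicate 4 was high among otherwise near-equal cell arrays, and the groups did not overlap. Its change was -1.12 ± 0.19 (limma adjusted p = 2.59e-04). POLE2 fell more than POLE3, with a difference in change of -1.60 ± 0.308 (exact permutation p = 0.00794, adjusted p = 0.0235). POLE, the catalytic subunit, changed by -1.47 ± 0.263. POLE and POLE3 passed after loess (-0.70 and -0.42), but not after quantile normalization (-0.77 and -0.42).

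The sliding clamp and its loader had 6 falls of 6, with a median of -1.19. PCNA, the clamp, had a mean of 10.28 ± 0.606 in microvesicles and 11.53 ± 0.134 in cells (SD, n = 5 each). It changed by -1.26 ± 0.25 (2.39-fold lower, limma adjusted p = 8.17e-04) and by -0.85 after loess. RFC1, the largest loader subunit, had 7.74, 6.52, 6.82, 6.23 and 6.21 in microvesicles and 8.42, 8.37, 8.27, 8.09 and 8.21 in cells. No microvesicle array reached the cells, and the change was -1.57 ± 0.257 (limma adjusted p = 1.98e-04). Its 3 probe sets did not move one way, since a dim one rose by 0.91, and their mean changed by -0.58. RFC2 had 8.46, 7.62, 7.51, 6.81 and 8.14 in microvesicles and 8.33, 8.43, 8.55, 8.30 and 8.28 in cells. Replicate 1 lay within the cells and the others below, with a change of -0.67 ± 0.257 (limma adjusted p = 0.0333) that turned to 0.13 after loess and 0.16 after quantile normalization, neither passing. This call was also lost without microvesicles replicate 2, 3 or 4 or any 1 cell array (-0.70 to -0.45, limma adjusted p = 0.0505 to 0.0721). RFC3, RFC4 and RFC5 changed by -1.14, -0.73 and -1.24. RFC3 and RFC4 did not pass after loess (-0.57 and -0.27) or quantile normalization (-0.62 and -0.30), and the mean of the RFC5 probe sets changed by -0.81. A second RFC3 probe set, with means of 6.05 in microvesicles and 9.39 in cells, fell by 3.34, the largest fall of any probe set of the list.

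RPA, which coats single-stranded DNA at the fork, had 2 falls of 3. RPA2, the middle subunit and a target of checkpoint kinases, had 8.22, 6.68, 8.46, 7.02 and 7.47 in microvesicles and 9.24, 9.51, 9.43, 9.39 and 8.96 in cells. Here replicate 3 was the highest microvesicle array and replicate 2 the lowest. RPA2 changed by -1.73 ± 0.302, or 3.33-fold lower (limma adjusted p = 3.07e-04). RPA1, the large DNA-binding subunit, changed by -1.45 ± 0.21, and the mean of its 3 probe sets by -0.77. RPA3, the small subunit, had 10.32, 9.64, 9.79, 9.17 and 9.99 in microvesicles and 10.11, 10.15, 10.14, 10.02 and 10.11 in cells. Its microvesicle arrays lay on both sides of the cells, replicate 1 above them and the other 4 below. The change of -0.32 ± 0.197 did not pass (limma adjusted p = 0.156), was 0.22 after loess, and passed at -0.46 without microvesicles replicate 1 (limma adjusted p = 0.0337). Minus that of RPA3, the change of RPA1 was -1.12 ± 0.0938 and that of RPA2 -1.41 ± 0.285 (exact permutation p = 0.00794, adjusted p = 0.0235 for both).

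Both lagging strand maturation genes fell. LIG1, the ligase that seals Okazaki fragments, had 6.62, 5.76, 6.58, 4.52 and 5.80 in microvesicles and 7.61, 7.26, 7.20, 7.52 and 7.62 in cells. Replicate 4 lay more than 1 below the next microvesicle array. LIG1 changed by -1.58 ± 0.328, or 2.99-fold lower (limma adjusted p = 0.00109). FEN1, the nuclease that trims the flaps, changed by -0.95 ± 0.218, and its other probe set by -1.71. After loess neither gene passed (-0.75 for LIG1 and -0.42 for FEN1).

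Read by their brightest probe sets, subunits of a complex thus did not all change by the same amount. Of 86 pairs of genes within a complex or role, 31 differed in their change (exact permutation test of the log2 ratio over the 10 arrays, 2-sided, adjusted over 86 pairs), and 28 did after loess. ORC2 (5 of 5 pairs), MCM7 (5 of 5), GINS2 (6 of 6), POLD2 (2 of 2), RPA3 (2 of 2) and RFC2 (4 of 5) took part in most of them. With 10 arrays no p under 0.00794 can be reached. With any 1 cell array left out 0 of 86 pairs passed, at a smallest adjusted p of 0.0506 to 0.0525. With any 1 microvesicle array left out 31 to 38 passed. In each of these settings the smallest p was again 0.00794, and p moves in steps of that size. A shift of few steps can thus decide the counts, and they do not show which arrays the pair results rest on. With the mean of all probe sets of a gene 34 of 86 passed. Probe sets of the same gene also differed in some cases, such as RFC3 (-1.14, -3.34 and 0.49). In others, such as GINS3 (-1.59 and -1.55), they were close. The part of probe set differences in these pairs was not tested. The share among other gene pairs of similar level was not determined.

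Microvesicle arrays differed among themselves more than cell arrays. The median SD of the 45 genes was 0.616 in microvesicles and 0.132 in cells, and in the level range it was 0.408 and 0.15. Microvesicles replicate 4 was the lowest of its group in 34 of 45 genes (75.6%), against 31% of genes in the level range. Microvesicles replicate 1 was the highest of its group in 37 of 45 (82.2%), against 37.7%. Taken as the value minus the gene's mean in cells, the median of the 45 genes was -0.58, -1.36, -1.16, -2.07 and -1.07 in microvesicles replicates 1 to 5. Genes of the level range had medians of -0.54, -0.86, -0.66, -0.88 and -0.82 on the same arrays, so replicate 1 differed little from that background and replicate 4 most. In cells the medians of the 45 genes were 0.08, 0.03, -0.02, -0.03 and -0.02. After loess the microvesicle medians were -0.05, -0.54, -0.68, -1.17 and -0.40. The excess of the 3' over the 5' ACTB probe set was 2.72, 2.93, 3.20, 3.64 and 3.13 on the microvesicle arrays, lowest in replicate 1 and highest in replicate 4, and its part in this order was not tested. Without microvesicles replicate 4 the median change of the 45 genes was -1.14, and 39 passed as lower.

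**Figure D3:**
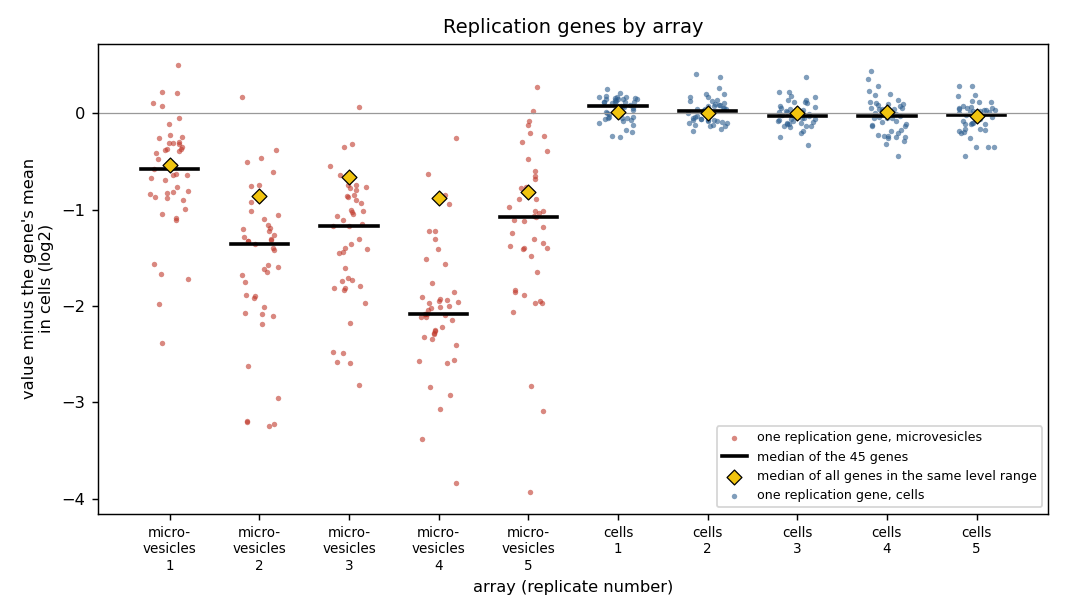
Value of each of the 45 genes on each array minus that gene's mean in cells (log2), microvesicle arrays first. Black bars are medians of the 45 genes (-2.07 in microvesicles replicate 4, -0.58 in replicate 1) and yellow diamonds medians of all 6827 genes in the same level range.

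Of 35 probe sets other than the brightest, found for 22 genes, 19 were lower, 4 higher and 12 did not pass (limma, adjusted over all probe sets, of which 27% passed as lower and 35.4% as higher). The 4 that rose were single probe sets of MCM4, MCM8, GINS2 and RFC1. With the mean of all probe sets of a gene 42 of the 45 genes were lower, against 29.7% of all genes, and GINS2, POLD2 and RPA3 again did not pass.

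**Figure D4:**
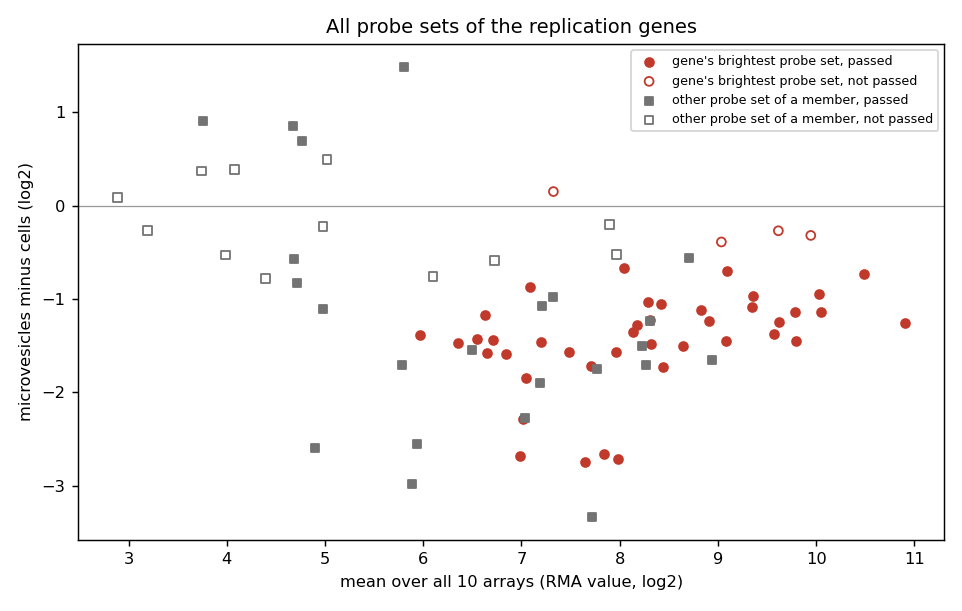
Change (microvesicles minus cells, log2) of all 80 probe sets of the 45 genes against their mean over all 10 arrays (log2). Red circles are the probe sets used and grey squares the others; filled symbols passed with adjustment over all probe sets. The 4 filled squares above 0 belong to MCM4, MCM8, GINS2 and RFC1, and MCM7 is open because its adjusted p was 0.0543 over all probe sets.

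Across the 45 genes the change was more negative in genes with a longer genomic span in GRCh38 (Pearson's r = -0.33 with log10 of the span, Spearman's rho = -0.40). In the level range the same description gave -0.26 and -0.29 over 6826 genes. These values are across genes that share the same arrays, so they describe these arrays. POLD2 and MCM7 (changes of 0.15 and -0.39) span 9.65 and 8.67 kb and POLA1 (-1.85) spans 303 kb. Against this order, PRIM2, the longest member at 425 kb, changed by -1.17, less than the median member, and RPA3 (-0.32) spans 82.1 kb.

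Other replication-related genes, a list of 49 of which 48 were measured, had 38 falls and 2 rises, where 31.2% of all genes were lower and 35.5% higher. Their median change was -1.14. After loess the median was -0.52, with 21 lower and 7 higher, against 18.8% and 26% of all genes. Origin firing and fork genes had 12 falls and 1 rise of 14. RIF1, which controls replication timing, was at 5.94 ± 0.616 in microvesicles and 8.71 ± 0.0674 in cells (SD, n = 5 each). It changed by -2.77 ± 0.25 (limma adjusted p = 1.85e-06). Of its 9 probe sets 6 were lower and 1 was higher, and their mean changed by -1.36. WDHD1, which ties polymerase alpha to the helicase, changed by -2.59 ± 0.245, the clamp unloader ATAD5 by -2.58 ± 0.262 and the nuclease-helicase DNA2 by -2.44 ± 0.29. WDHD1 and ATAD5 had means of 4.60 and 4.15 in microvesicles, close to the array median, so the size of their falls is uncertain. The rises were those of RTEL1, a telomere and fork helicase (7.16 ± 0.247 in microvesicles and 5.92 ± 0.184 in cells, a change of 1.24 ± 0.168, limma adjusted p = 4.38e-05), and RNASEH1, which removes RNA from RNA-DNA hybrids (0.39 ± 0.145, limma adjusted p = 0.0294). RNASEH1 changed by -0.09 with the mean of its probe sets, and with arrays centred on their median it did not pass (0.23, limma adjusted p = 0.183). Deoxynucleotide supply genes had 8 falls of 9, among them RRM1 and RRM2, the subunits of ribonucleotide reductase (-1.69 and -1.05), of which RRM2 did not pass after loess (-0.48). Genes of chromatin assembly at forks had 8 falls of 9, with DNMT1, the maintenance methyltransferase, at -1.81. The 7 remaining polymerase subunits and alternative clamp loaders had 4 falls, and POLD4 and POLE4, the small subunits of polymerases delta and epsilon, did not pass (0.24 ± 0.291 and 0.07 ± 0.172). POLE4 passed as higher after loess (0.87, limma adjusted p = 0.00145) and after quantile normalization (0.91). Enzymes for flaps, RNA primers and DNA topology had 6 falls and 1 rise of 9. After loess origin firing and fork genes had 9 falls and 2 rises of 14. Deoxynucleotide supply genes then had 2 falls and 1 rise of 9, and chromatin assembly genes 4 falls and 0 rises of 9. The remaining subunits and clamp loaders had 1 fall and 2 rises of 7, and the flap, primer and topology enzymes 5 falls and 2 rises of 9.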

How the data were processed

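K562 microvesicles and cells were profiled on Affymetrix arrays, 5 per group. The deposited table holds log2 expression values per probe set made by the authors with RMA, per the submitters' processing notes. No version or settings of RMA are stated there. Of 54630 probe sets 41091 had 1 gene in the platform annotation and 19775 genes were tested, each by its brightest probe set. Probe sets with several genes (1801) or none listed (11721) and 17 control probe sets were left out. A few listed genes outside the members are not reported here.

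Groups were compared with limma 3.58.1 in R 4.3.3 (lmFit and eBayes, 2-sided, Benjamini-Hochberg over all genes), checked on simulated data. Changes are microvesicles minus cells ± SE. Pairs of genes within a complex were compared by an exact permutation test of their log2 ratio, a test added after the data had been seen. The number of arrays limits the precision. Members and lists were chosen with earlier results of these data known. Array values are given for the lowest and, in groups of 3 or more, the highest change in each role group, and for any rise; from the other replication-related genes the 4 largest falls and rises past the threshold are named, and a few more were named after their values were seen. The alternatives tried were a block for the replicate number, scaling, loess by level, a filter on dim genes, probe set rules, variance models, array weights, an exact permutation test per gene and leaving out each array.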

Additional observations from a re-analysis of the deposited data

Results flagged for a closer look

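In 5 of 102 sets of 5 arrays examined (each gene in each group), 1 array stood apart by more than 0.71 of the whole range of its group. Chance flags about 1 in 20 such sets, so this number is near what chance gives. POLE2 was at 8.24 in microvesicles replicate 1, with the other microvesicle arrays at 5.96 to 6.52. POLE3 was at 9.83 in cells replicate 4, with the others at 9.28 to 9.29. MCM8 was at 8.41 in cells replicate 2, with the others at 8.28 to 8.31. GMNN was at 10.37 in cells replicate 1, with the others at 10.63 to 10.71. RIF1 was at 8.59 in cells replicate 4, with the others at 8.72 to 8.76.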

How the results depend on the processing

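Of the 42 falls, 39 passed in the same direction under all 18 alternatives other than loess by level and a second quantile normalization, and the exceptions were ORC1, MCM7 and RFC2. The labels do not say that a shared number is a shared culture, so the main fit had no block. Same-numbered arrays of the groups deviated together only weakly (correlation -0.0281 to 0.1235, with 3 of 5 correlating best with their own number). These correlations do not settle whether the numbers are pairs. The replicate number as a block gave 41 lower replication genes (MCM7 did not pass, adjusted p = 0.0775), 0 higher, and 1 higher gene in the related list. Arrays left out in turn gave 39 to 43 lower and 0 to 0 higher replication genes, 36 to 39 lower and 1 to 2 higher related genes, and 11664 to 13411 genes called in all. MCM7 lost its call in 11 of the 18, ORC1 in 9 and RFC2 in 9. Loess left 24 lower and 1 higher replication genes and 21 lower and 7 higher related genes. Quantile normalization again left 19 and 1, 21 and 7, and 8500 genes in all. Median centring and averaging all probe sets of a gene each left 1 higher related gene, and testing only genes with a group mean of at least 5 called 8289 of 11366. Signs turned for MCM7 (0.28 loess, 0.26 quantile), GINS2 (0.32, 0.27, and 0.15 as the mean of probe sets), RFC2 (0.13, 0.16), RPA3 (0.22, 0.18), ORC1 (0.00 loess), POLD2 (-0.01 centred) and RNASEH1 (-0.09 as the mean of probe sets). Fewer genes were tested under the filter, and the cause of these differences was not tested. Values near the array median may be background, which limits the size of falls of dim genes such as ATAD5.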
